A study of Homo sapiens with 8 samples.

Results

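JUN, JUNB, JUND, FOS, FOSL1, FOSL2, ATF3, EGR1, IER2 and IER3 are early response transcription factor genes and their companions, and they were chosen by gene symbol. Every probe set whose annotation on the Affymetrix array gives 1 of these symbols was taken, which found 18 probe sets for the 10 genes among the 22283 probe sets of the array. JUN has 4 probe sets, JUND and FOSL2 have 3 each, EGR1 has 2 and the others have 1. Of the 18, 15 were bright enough to be tested, and these belong to 8 genes. The FOS probe set and both EGR1 probe sets were below the filter on dim signals.

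The cells were an unnamed line derived from human lung adenocarcinoma of the non-small cell class. They were cultured in serum-containing medium and then changed to fresh medium for 24 h with 1 µM rosiglitazone (a ligand of the nuclear receptor PPARγ), 10 µM carboplatin (a DNA-crosslinking platinum drug), both drugs, or a control treatment that the labels give as DMSO in one place and control medium in another. The series concerns synergy between PPARγ ligands and platinum drugs. Each group had 2 arrays, 8 in all, and doses are not given again for the combined treatment. Nothing states that paired arrays were made from different cultures, so every p-value below rests on array-to-array spread, part or all of which may be technical.

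JUN and FOS family proteins pair through leucine zippers to form AP-1, a dimeric factor that binds DNA and is switched on by MAP kinase signalling. Most of these genes are induced within minutes by serum, growth factors or stress and fall again within hours, so RNA taken after a day of treatment reads a later state. JUN is the transactivating partner in many AP-1 dimers, and its protein also binds a site in its own promoter. In epithelial cancers FOSL1 is often the FOS family member present in growing cells.

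The promoters of JUN, FOS and EGR1 are shown because JUN was the 1 member gene with probe sets that changed, while FOS and EGR1 are the classical immediate early genes whose signals stayed dim. Each runs 5′ to 3′ from 250 bases before the transcription start to 50 bases from it, in the RefSeq annotation of GRCh38.p14. Capitals mark matches on either strand to an AP-1 site (TGANTCA), a CRE-like site (TGACNTCA), the CArG box read by serum response factor, an EGR site (GCGNGGGCG) or a TATA box (TATAAA).
JUN, chr1:58783998-58784297, minus strand: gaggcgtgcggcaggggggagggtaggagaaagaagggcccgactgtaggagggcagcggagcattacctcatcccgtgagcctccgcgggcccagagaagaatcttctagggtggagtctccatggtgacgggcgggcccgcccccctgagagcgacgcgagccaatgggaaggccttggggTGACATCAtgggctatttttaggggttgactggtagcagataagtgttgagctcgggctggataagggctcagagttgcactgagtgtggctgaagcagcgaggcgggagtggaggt
FOS, chr14:75278578-75278877, plus strand: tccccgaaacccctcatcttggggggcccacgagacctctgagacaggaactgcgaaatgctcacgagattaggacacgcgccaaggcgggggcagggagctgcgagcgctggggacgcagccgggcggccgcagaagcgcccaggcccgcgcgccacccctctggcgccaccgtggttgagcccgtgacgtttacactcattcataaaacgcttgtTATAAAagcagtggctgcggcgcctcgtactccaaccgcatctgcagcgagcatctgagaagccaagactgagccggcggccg
EGR1, chr5:138465229-138465528, plus strand: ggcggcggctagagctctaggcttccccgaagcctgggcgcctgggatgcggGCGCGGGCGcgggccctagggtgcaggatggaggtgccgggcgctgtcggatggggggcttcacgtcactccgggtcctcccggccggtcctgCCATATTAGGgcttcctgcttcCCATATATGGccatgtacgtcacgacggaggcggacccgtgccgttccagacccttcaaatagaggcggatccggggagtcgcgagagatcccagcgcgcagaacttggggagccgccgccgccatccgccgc
In these windows JUN held 1 CRE-like match, TGACATCA, from -67 to -60 relative to the start. Letters of this kind in the JUN promoter are known to bind dimers of JUN with ATF2. EGR1 held CArG boxes at -105 to -96 and at -83 to -74 and an EGR site at -198 to -190, and FOS held a TATA box at -33 to -28. Of the 10 genes 8 had a promoter in the RefSeq table used, and 2 of these 8, JUN and JUND, held a CRE-like match, as did 7.72% of all 35116 promoters of the table. A CArG box was in 1 of the 8 and in 1.29% of all promoters, and an AP-1 site was in 1 of the 8 (FOSL2) and in 7.71%. The DR1 element that PPARγ binds with its partner RXR, searched as 2 copies of AGGTCA separated by 1 base, was in none of the 8 and in 0.0228% of all. These are matches of letters and were not tested for binding. Bases more than 250 before the start were not searched in any gene, FOS included. Sites whose letters differ from those given would be missed. The ATF3 window, on chromosome 1 from 212614768 to 212615067, lies inside the gene, which runs from 212565407 to 212620777. Bases around the first position of that gene were therefore not searched.

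Of the 4 JUN probe sets, 2 were higher in the 4 arrays with rosiglitazone, alone or combined with carboplatin, than in the 4 without it. The JUN gene lies on chromosome 1 from 58780791 to 58784047 (GRCh38.p14, minus strand). In the deposited signals, probe set 201464_x_at read 466 and 739 with rosiglitazone and 366 and 675 with the combination, against 188 and 306 with carboplatin and 291 and 212 in control. Probe set 201466_s_at read 147 and 162 with rosiglitazone and 106 and 125 with the combination, against 45.4 and 47.2 with carboplatin and 47.8 and 43.9 in control. In both, all 4 arrays with rosiglitazone lay above all 4 without it.

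Signals were then normalized and put on a log2(signal + 16) scale, on which differences are given with the standard error (SE) from limma. On that scale 201464_x_at averaged 9.05 ± 0.17 with rosiglitazone, 8.98 ± 0.17 with the combination, 8.13 ± 0.22 with carboplatin and 8.11 ± 0.016 in control (SD, n = 2 each). The corresponding means of 201466_s_at were 7.25 ± 0.15 with rosiglitazone, 7.02 ± 0.22 with the combination, 6.04 ± 0.12 with carboplatin and 6.05 ± 0.13 in control (SD, n = 2 each). The combination differed from rosiglitazone alone by -0.07 ± 0.16 in 201464_x_at and by -0.23 ± 0.20 in 201466_s_at (adjusted p = 1 each), with arrays that overlapped, so these groups have no settled order. In 201464_x_at the sign of that difference turned without rosiglitazone replicate 2 (0.0538), without combination replicate 1 (0.0520) and with array brightness as a covariate (0.0354).

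**Figure D1:**
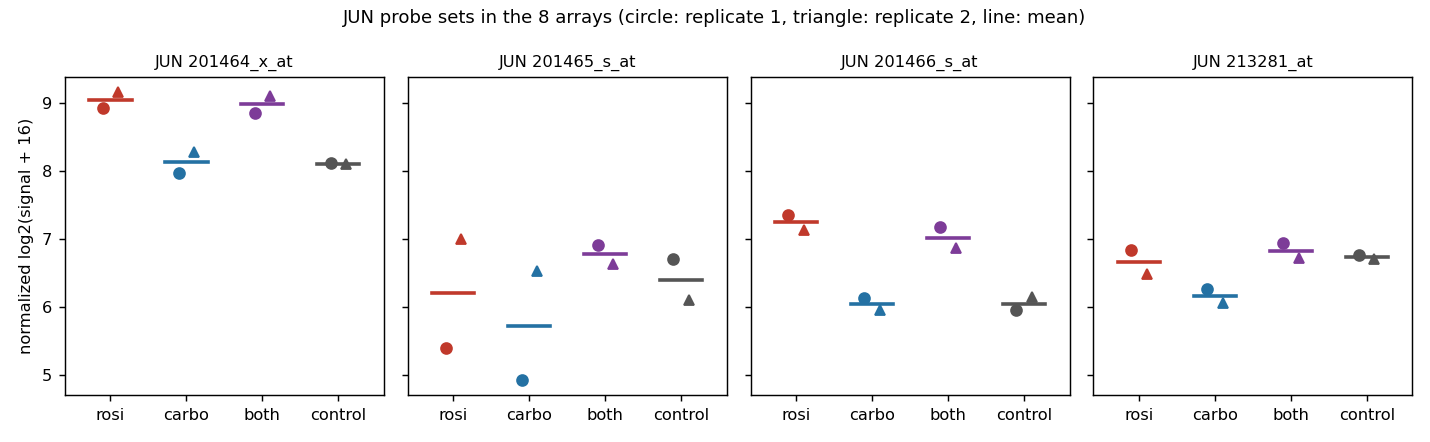
Normalized log2(signal + 16) of the 4 JUN probe sets in the 8 arrays, with rosiglitazone (rosi), carboplatin (carbo), the combination (both) and control from left to right, points for arrays and lines for group means (n = 2). In 201464_x_at and 201466_s_at the rosiglitazone and combination arrays all sit above the carboplatin and control arrays, while 201465_s_at spreads widely within groups and 213281_at is lowest with carboplatin.

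Against control, rosiglitazone raised 201464_x_at by 0.94 ± 0.16 (1.92-fold, limma adjusted p = 0.0404) and 201466_s_at by 1.20 ± 0.20 (2.3-fold, adjusted p = 0.037). These were 2 of the 15 member probe sets tested, and 0.270% of all 13338 probe sets tested were called higher in this comparison. Leaving out either control array or either rosiglitazone array ended both calls, with adjusted p-values from 0.0979 to 0.301, and the call of 201466_s_at was also lost without carboplatin replicate 1 (adjusted p = 0.0522) or carboplatin replicate 2 (adjusted p = 0.0507). Neither call held with no filter on dim probe sets or with no intensity trend in the fit. For 201464_x_at the call also ended under median scaling (adjusted p = 0.266), under the deposited scaling (adjusted p = 0.271) and with array brightness as a covariate (adjusted p = 0.127). In the same comparison 0.0900% of all probe sets were called lower and 0.360% in either direction.

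Taking the 4 arrays with rosiglitazone (alone or with carboplatin) against the 4 without it, the rosiglitazone main effect was 0.90 ± 0.11 for 201464_x_at (1.86-fold, adjusted p = 0.00302) and 1.09 ± 0.14 for 201466_s_at (2.12-fold, adjusted p = 0.00356). By p-value these stood at ranks 28 and 33 of 13338 probe sets, of which 0.667% were called higher, 0.217% lower and 0.885% in either direction. Arrays that do not overlap in this way were found upward in 3.20% of all probe sets. Both calls held in each of the 17 alternatives run, which include leaving out each of the 8 arrays, and the difference ran from 0.78 to 1.10 for 201464_x_at and from 0.73 to 1.30 for 201466_s_at. With array brightness (the median log2 signal of an array) as a covariate the values were 0.78 and 1.22. The median deposited signal was 46.4 and 54.3 with rosiglitazone and 37.2 and 52.2 with the combination, against 37.6 and 44.6 with carboplatin and 45.8 and 36.2 in control.

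**Figure D2:**
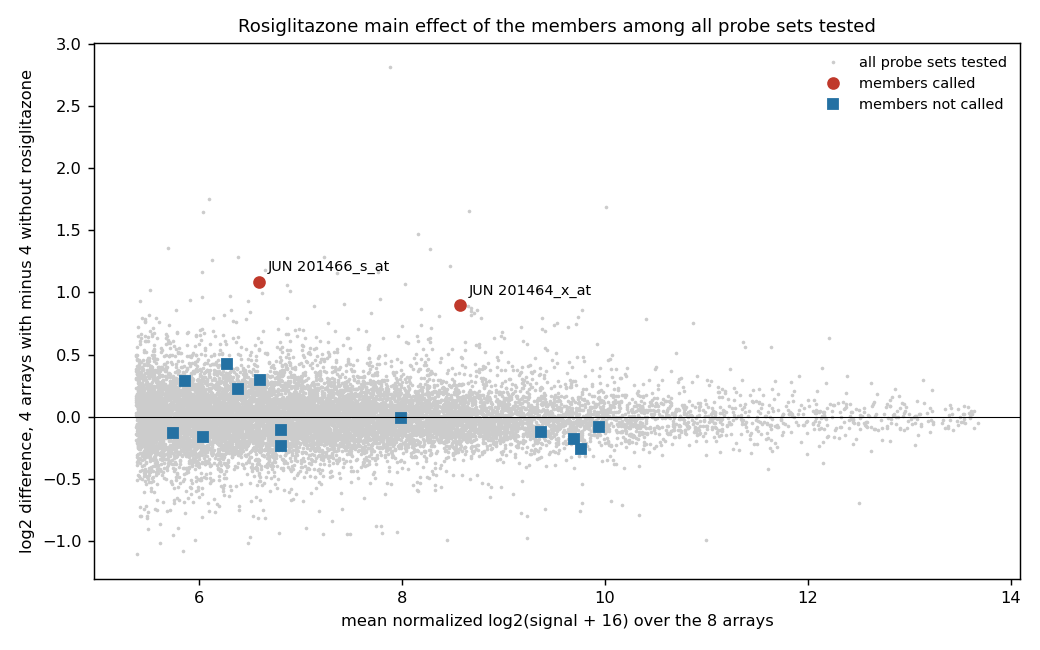
Rosiglitazone main effect (log2 difference, 4 arrays with minus 4 without rosiglitazone) against mean normalized log2(signal + 16), for all 13338 probe sets tested (grey), called members (red circles) and other members (blue squares). The JUN probe sets at 0.90 and 1.09 stand above the other 13 member probe sets, which lie between -0.26 and 0.42.

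In the presence of carboplatin JUN showed similar differences that did not pass. The combination exceeded carboplatin by 0.85 ± 0.16 in 201464_x_at (adjusted p = 0.095) and by 0.97 ± 0.20 in 201466_s_at (adjusted p = 0.133), where 0.142% of all probe sets were called higher, 0.0150% lower and 0.157% in either direction. Against control the combination differed by 0.87 ± 0.16 (adjusted p = 0.0628) and by 0.97 ± 0.20 (adjusted p = 0.089), in a comparison that called 0.165% of probe sets higher, 0.0600% lower and 0.225% in either direction, and that shares its control arrays with the rosiglitazone comparison. With a filter at the 60th percentile the first of these passed (adjusted p = 0.0434), and the second passed with array brightness as a covariate (adjusted p = 0.0452).

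The interaction, which asks whether the rosiglitazone difference changed when carboplatin was present, was -0.09 for 201464_x_at (95% interval -0.58 to 0.41) and -0.22 for 201466_s_at (-0.84 to 0.40). Neither passed. Carboplatin alone differed from control by 0.02 ± 0.16 in 201464_x_at and by -0.002 ± 0.20 in 201466_s_at, with 95% intervals of -0.33 to 0.37 and of -0.44 to 0.44.

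The other JUN probe sets did not pass in any comparison, and in rosiglitazone against control they were at -0.20 ± 0.54 (201465_s_at) and -0.08 ± 0.20 (213281_at). In the combination against carboplatin both were higher with arrays that did not overlap, at 1.05 ± 0.54 for 201465_s_at (adjusted p = 0.828) and 0.67 ± 0.20 for 213281_at (unadjusted p = 0.00654 by limma, adjusted p = 0.445). Probe set 201465_s_at read 28.1 and 146 with rosiglitazone and 85.6 and 104 with the combination, against 12.3 and 79.5 with carboplatin and 95.8 and 42.3 in control. Its arrays overlapped between all groups except the combination and carboplatin, and its rosiglitazone main effect of 0.42 ± 0.38 did not pass (adjusted p = 0.794). Probe set 213281_at read 99.3 and 93.2 with rosiglitazone and 87.3 and 111 with the combination, against 50.9 and 52.0 with carboplatin and 100.3 and 71.7 in control. Here the carboplatin arrays were the low ones, with a rosiglitazone main effect of 0.29 ± 0.14 (adjusted p = 0.546) and a difference of -0.58 ± 0.20 for carboplatin against control (adjusted p = 0.927). Its interaction was 0.75 ± 0.28 (unadjusted p = 0.0224 by limma, adjusted p = 0.821).

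How far the probe sets of JUN differed in their change is given as a description, since the pairs were picked from the result, each a called probe set minus one that was not. The log2 difference between the pair in each array was averaged over the 4 arrays with rosiglitazone and over the 4 without, and the first mean exceeded the second by 0.79 for 201466_s_at minus 213281_at and by 0.60 for 201464_x_at minus 213281_at. With 201465_s_at as partner it did so by 0.66 for 201466_s_at and by 0.47 for 201464_x_at. Averaged over its 4 probe sets, JUN had a rosiglitazone main effect of 0.67 ± 0.13 (adjusted p = 0.0243 over 8030 genes, each averaged likewise) and a difference of 0.46 ± 0.18 for rosiglitazone against control that did not pass (adjusted p = 0.387). This averaging was chosen after seeing the data. In Affymetrix naming the _x_at ending marks probes that can read unrelated transcripts and _s_at marks probes shared by several transcripts, and whether either applies here was not tested.

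None of the other member genes passed in any of the comparisons. With 2 arrays a group, arrays that do not overlap are common, so such statements below are descriptions. Against control they occurred upward and downward in 19.8% and 22.2% of all probe sets for rosiglitazone, 17.3% and 19.5% for the combination and 16.2% and 18.9% for carboplatin, and for the combination against carboplatin in 17.2% and 17.1%. No share was counted for the 2 arrays of 1 group lying apart from the other 6. JUNB and JUND encode JUN relatives that also dimerize with FOS proteins. JUNB had normalized log2 values of 6.65 and 6.46 with rosiglitazone and 6.74 and 6.92 with the combination, against 6.90 and 6.81 with carboplatin and 7.06 and 6.94 in control. On this scale the rosiglitazone arrays were below the other 6, at -0.45 ± 0.18 against control (limma adjusted p = 0.424). In the deposited signals they were not, at 85.5 and 91.2 where combination replicate 1 read 74.5 and carboplatin replicate 1 read 83.7. JUND probe set 203752_s_at was at 9.56 and 9.44 with rosiglitazone and 9.67 and 9.74 with the combination, against 9.86 and 9.71 with carboplatin and 9.81 and 9.74 in control. On the normalized scale its rosiglitazone arrays were the lowest as well (-0.27 ± 0.12 against control, limma adjusted p = 0.459). On the deposited scale its main effect was 0.01 in place of -0.18. The JUND probe sets 203751_x_at and 214326_x_at had rosiglitazone main effects of -0.16 ± 0.22 and -0.13 ± 0.24, with array values that overlapped.

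Among FOS family genes, FOS itself gave no usable reading. Its probe set 209189_at read 3.59 and 1.90 with rosiglitazone and 2.21 and 3.92 with the combination, against 2.28 and 2.62 with carboplatin and 4.61 and 3.14 in control, and its mean stood at the 4.9th percentile of all probe sets. The table used has no detection calls, so whether FOS RNA was present cannot be said from these values. FOSB, a close relative of FOS, was likewise below the filter, at signals from 2.39 to 4.98 over the 8 arrays.

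FOSL1, which encodes FRA-1, read 987 and 1221 with rosiglitazone and 793 and 1116 with the combination, against 791 and 788 with carboplatin and 1365 and 863 in control. On the normalized scale each treated group was below both control arrays, at -0.25 ± 0.15 with rosiglitazone, -0.30 ± 0.15 with the combination and -0.38 ± 0.15 with carboplatin, and none of these passed (adjusted p = 0.608, 0.629 and 0.927). The 3 comparisons share the control arrays, whose normalized values for FOSL1 were 10.32 and 10.03. With the deposited scaling the rosiglitazone difference was 0.02.

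FOSL2, which encodes FRA-2, was read by probe sets that disagreed. Probe set 218881_s_at had signals of 135 and 67.2 with rosiglitazone and 61.9 and 63.1 with the combination, against 63.9 and 87.5 with carboplatin and 44.7 and 39.4 in control. All 6 treated arrays were above control, and the rosiglitazone difference of 0.74 ± 0.31 (adjusted p = 0.458) was carried mostly by replicate 1, the highest of the 8 arrays. For carboplatin against control this probe set was at 0.66 ± 0.31 and 205409_at at 0.50 ± 0.22 (adjusted p = 0.927 each), while 218880_at was at 0.05 ± 0.16. Across the 8 arrays 218880_at correlated at -0.20 with 205409_at and at -0.41 with 218881_s_at, and those 2 correlated at 0.78.

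**Figure D3:**
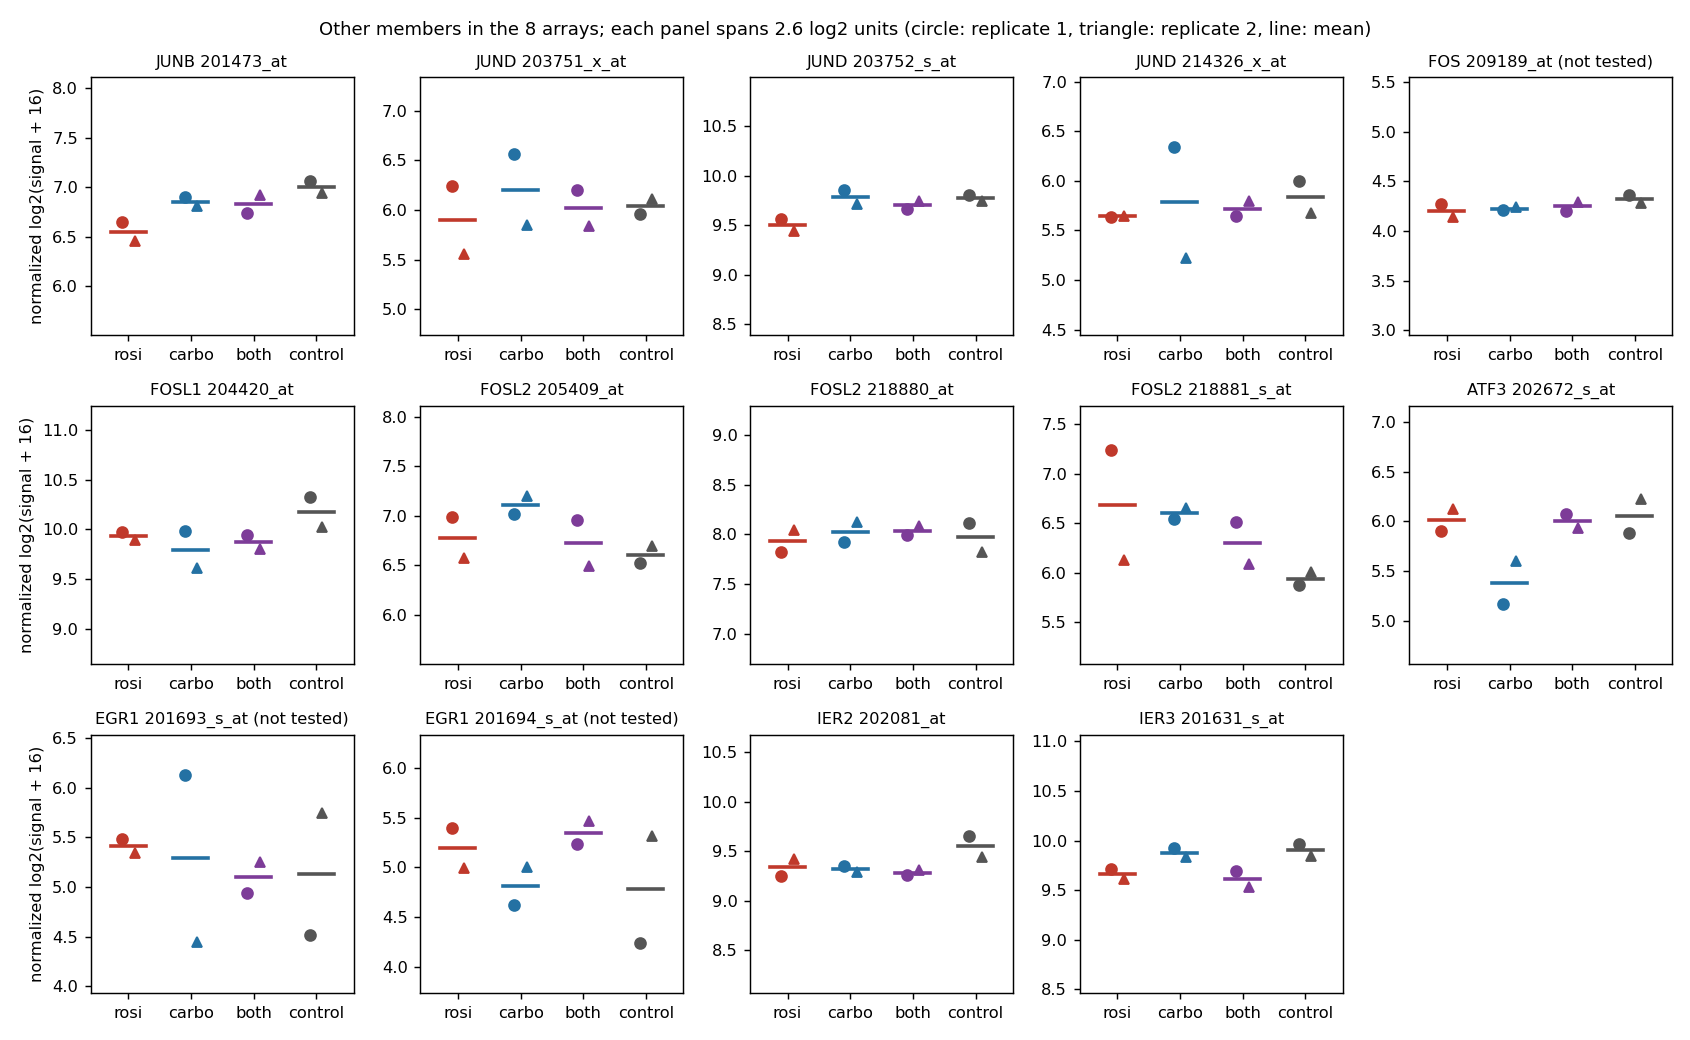
Normalized log2(signal + 16) of the 14 probe sets of the other 9 genes in the 8 arrays, with rosiglitazone (rosi), carboplatin (carbo), the combination (both) and control from left to right, points for arrays and lines for group means (n = 2). ATF3 is lowest in the carboplatin arrays, IER3 is lower in the 4 arrays with rosiglitazone, and the dim EGR1 probe sets scatter widely within groups.

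ATF3, a stress-induced bZIP factor that pairs with JUN proteins, was lowest with carboplatin. Its signals were 46.0 and 67.3 with rosiglitazone and 43.4 and 53.4 with the combination, against 17.4 and 32.3 with carboplatin and 45.0 and 47.3 in control. Both carboplatin arrays lay below the other 6, a split whose share over all probe sets was not counted. Carboplatin arrays lay below both control arrays in 18.9% of all probe sets. The difference was -0.67 ± 0.25 for carboplatin against control (adjusted p = 0.927) and 0.62 ± 0.25 for the combination against carboplatin (adjusted p = 0.713), and neither passed. The interaction was 0.66 ± 0.35 (95% interval -0.12 to 1.44, adjusted p = 0.84).

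EGR1, a zinc finger factor induced through serum response factor, was below the filter in both of its probe sets. Signals of 201693_s_at ran from 5.42 to 45.5 and those of 201694_s_at from 2.98 to 32.0, and the lowest and highest arrays of 201693_s_at were the pair of carboplatin arrays. With no filter the EGR1 differences from control lay between -0.03 ± 0.56 and 0.57 ± 0.36, and those of FOS between -0.12 ± 0.12 and -0.07 ± 0.12, none of which passed (adjusted p of 0.797 or more).

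IER2 encodes a nuclear protein of the immediate early response, and IER3 a stress-inducible protein that modulates survival signalling. IER3 had normalized log2 values of 9.71 and 9.61 with rosiglitazone and 9.69 and 9.53 with the combination, against 9.92 and 9.83 with carboplatin and 9.97 and 9.85 in control. On this scale all 4 arrays with rosiglitazone lay below all 4 without it, as did 2.95% of all probe sets tested. The main effect of -0.26 ± 0.08 did not pass (limma adjusted p = 0.279). In the deposited signals the arrays overlapped. There IER3 read 799 and 1002 with rosiglitazone and 656 and 918 with the combination, against 761 and 918 with carboplatin and 1068 and 761 in control. IER2 was at 9.25 and 9.42 with rosiglitazone, 9.26 and 9.31 with the combination, 9.35 and 9.29 with carboplatin and 9.66 and 9.44 in control. Each treated group was below both control arrays, at -0.21 ± 0.13 with rosiglitazone, -0.27 ± 0.13 with the combination and -0.23 ± 0.13 with carboplatin, none past the threshold. With the deposited scaling the first of these was 0.02.

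**Figure D4:**
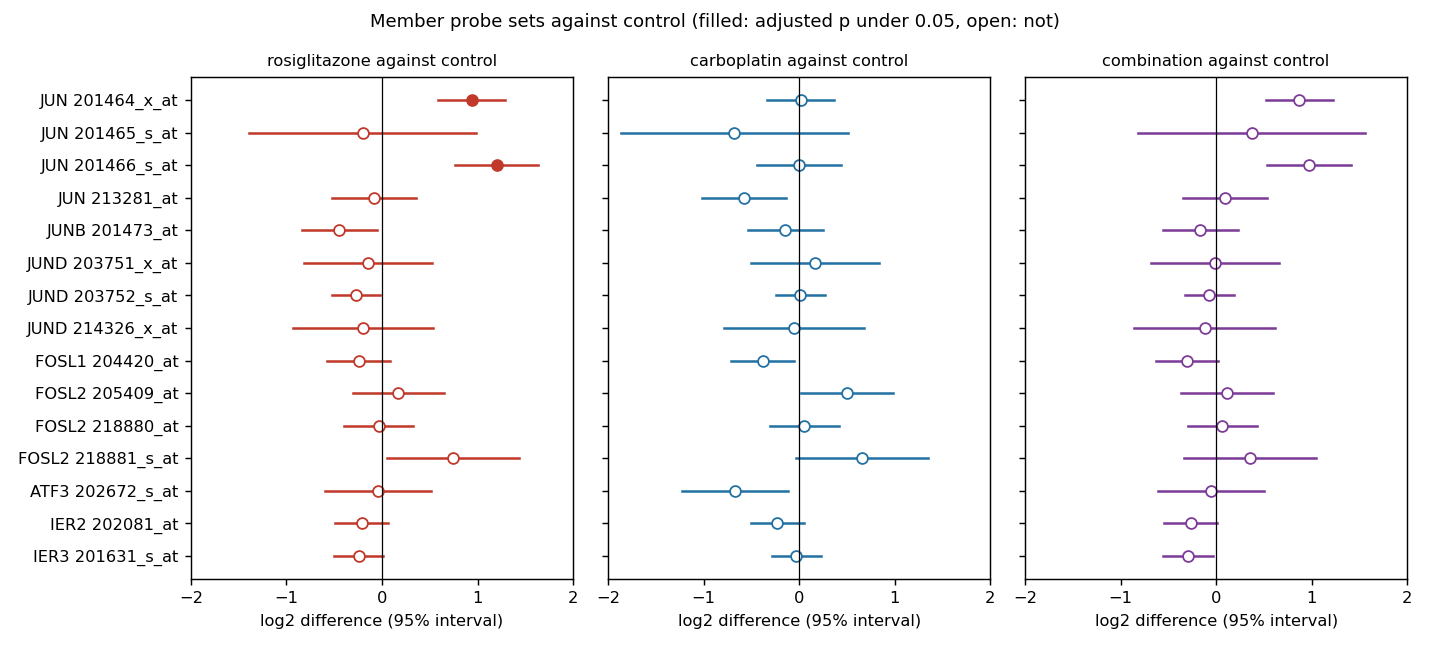
Log2 difference against control of the 15 member probe sets tested, with 95% intervals from limma, for rosiglitazone, carboplatin and the combination (panels, n = 2 arrays per group, filled where the adjusted p was under 0.05). The filled points are JUN 201464_x_at at 0.94 and JUN 201466_s_at at 1.20 with rosiglitazone, and the carboplatin and combination panels have none.

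Carboplatin thus called none of the 15 member probe sets by limma, while 0.0150% of all probe sets were called higher and none lower. At an unadjusted p under 0.05 there were 4 of the 15, against 5.17% of all probe sets. They were JUN 213281_at, FOSL1, ATF3 and, as the 1 that was higher, FOSL2 205409_at. For rosiglitazone against control 5 of the 15 had an unadjusted p under 0.05, against 10.4% of all. Of these 5, 3 were higher (JUN 201464_x_at, JUN 201466_s_at and FOSL2 218881_s_at) and 2 were lower (JUNB and JUND 203752_s_at). The F-test over the 4 groups called 2 of the 15, again the JUN probe sets 201464_x_at (adjusted p = 0.0263) and 201466_s_at (adjusted p = 0.0293), where 0.510% of all probe sets were called. No member passed for the combination against rosiglitazone, the carboplatin main effect or the interaction, and these had 0, 0 and 2 members at an unadjusted p under 0.05. Over all probe sets the share at that p was 4.54% for the combination against rosiglitazone, 4.02% for the carboplatin main effect and 5.97% for the interaction, and the share called was 0.0225%, 0.0300% and 0%. The combination against control had 3 members at that p where 8.42% of all were, the combination against carboplatin had 5 where 6.43% were, and the rosiglitazone main effect had 3 where 9.96% were.

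Other genes of the pathway were read from lists, with 1 probe set per gene. Of 28 other immediate early genes tested, 2 rose as a rosiglitazone main effect and none fell, with a median of -0.004 against -0.02 over 8030 genes. Over all probe sets tested 0.667% were called higher for this effect and 0.217% lower. KLF10, a TGF-β inducible zinc finger factor, had signals of 376 and 640 with rosiglitazone and 203 and 550 with the combination, against 196 and 217 with carboplatin and 204 and 136 in control, and rose by 0.87 ± 0.16 (adjusted p = 0.0291, called in 7 of 17 alternatives). PHLDA1, a pleckstrin homology domain protein, rose by 0.63 ± 0.09 (adjusted p = 0.00548, called in 14 of 17). NR4A1, an orphan nuclear receptor (0.37 ± 0.23), KLF6 (0.24 ± 0.14), MYC (-0.02 ± 0.11) and ZFP36, an mRNA decay factor (-0.19 ± 0.21), did not pass. BTG2 was not analysed here.

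None of the 10 MAP kinase phosphatase and feedback genes tested passed for the rosiglitazone main effect, among them DUSP1 (0.07 ± 0.10) and DUSP6 (0.07 ± 0.19), which inactivate MAP kinases. Over all probe sets tested 0.217% were called lower, and of 20 upstream kinase and ternary complex factor genes 1 fell. This was RPS6KA5, which encodes the kinase MSK1, at 102 and 155 with rosiglitazone and 91.8 and 138 with the combination, against 143 and 263 with carboplatin and 257 and 207 in control. On the normalized scale it fell by 0.94 ± 0.13 (adjusted p = 0.00509, called in 16 of 17 alternatives). MAPK8, which encodes the JUN kinase JNK1 (-0.35 ± 0.20), ELK1 (0.11 ± 0.13) and SRF (0.01 ± 0.17) did not pass. None of 11 other bZIP genes passed.

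Of 14 AP-1 target genes tested, 2 rose and 1 fell as a rosiglitazone main effect, with a median of 0.10 against -0.02 over 8030 genes. Over all probe sets tested 0.667% were called higher and 0.217% lower. The matrix gene FN1 (fibronectin) rose by 0.68 ± 0.10 (adjusted p = 0.00517) and HMOX1 (heme oxygenase) by 0.86 ± 0.10 (adjusted p = 0.00218). The chemokine gene CXCL8 fell by 0.93 ± 0.16 (adjusted p = 0.0173, called in 7 of 17 alternatives). The protease gene PLAU was at 0.12 ± 0.11 and did not pass, and the collagenase gene MMP1 was below the filter. These lists describe counts, and no list was tested as a whole. They were chosen with earlier results of these data known, so the medians and counts are descriptions. For carboplatin against control none of the genes of the 5 lists passed.

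The genes whose pattern was most like JUN were found by correlation with 201464_x_at, the JUN probe set of highest mean, over the 8 arrays. They were ANXA1 (annexin A1, r = 0.99), EPAS1 (the hypoxia factor HIF-2α, r = 0.99), PODXL (the sialomucin podocalyxin, r = 0.98), ADGRG1 (an adhesion receptor, r = 0.98) and ARHGAP26 (a GTPase-activating protein, r = 0.98). All points share the 4 treatment groups. The other JUN probe sets correlated with 201464_x_at at 0.90 (201466_s_at), 0.43 (201465_s_at) and 0.38 (213281_at).

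Of the markers of the labelled epithelial origin, the keratins KRT7, KRT8 and KRT18 were bright, with KRT18 at signals from 4185 to 6118. KRT19 read 128 to 246, CDH1 45.6 to 159 and SFTPB 33.1 to 59.0. EPCAM and the lung factor NKX2-1 were below the filter, at signals of at most 28.2 and 29.3. The summed deposited signal of 8 epithelial markers came mostly from KRT7, KRT8 and KRT18. It ran from 10336 to 14342 with rosiglitazone and from 9943 to 14267 with the combination, against 8377 to 9829 with carboplatin and 9289 to 10824 in control. That of 3 leukocyte markers ran from 93.6 to 116 with rosiglitazone and from 49.6 to 112 with the combination, against 44.5 to 73.4 with carboplatin and 60.1 to 62.8 in control. CD3E, the 1 leukocyte marker above the filter, read 81.0 and 93.5 with rosiglitazone and 39.6 and 83.5 with the combination, against 27.99 and 43.3 with carboplatin and 51.5 and 38.7 in control, while PTPRC, which all leukocytes carry, was at 0.784 to 18.5. Fibroblast markers (6) summed to between 182 and 274 and endothelial markers (3) to between 19.9 and 57.5 over all arrays. The part of these levels in the JUN result was not tested.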

How the data were processed

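RNA of 8 samples, 2 per group by their titles, was read on 1 Affymetrix array each. Labelled RNA was primed with oligo-dT, per the labels' protocols. Deposited were intensity values, 1 linear signal per probe set, and how the authors computed or scaled them is not given in the sources used here. They ran from 0.0322 to 14941 with no detection calls. The number of arrays limits the precision.

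From these, log2(signal + 16) was computed, which understates changes of dim probe sets. Array medians spanned 0.43, so values were quantile normalized (limma 3.58.1, R 4.3.3). After removal of 68 control probe sets and of those whose mean fell below the 40th percentile, 13338 remained. Only the 19065 probe sets with 1 symbol in the annotation were named, and 19053 were found by Entrez identifier in RefSeq (GRCh38.p14) with no symbol changed. All 8 arrays entered 1 model with a mean for each group (lmFit, eBayes with intensity trend, 4 residual and 7.1 prior degrees of freedom). Tests were two-sided contrasts and an F-test, with Benjamini-Hochberg adjustment over all 13338 and a threshold of 0.05. The fit was tested on simulated data.

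All member probe sets were named. Further genes were a fixed set named whatever their values, list genes that passed, and the 5 genes most correlated with JUN. In lists the probe set of highest mean stood for a gene. Members and lists were chosen with earlier results of these data known. Alternatives were the deposited and median scaling, no filter, pseudocounts of 1 and 64, a 60th-percentile filter, no intensity trend, a fit of just the 2 groups in question, a block for replicate number, array brightness as a covariate, and leaving out each array. Chosen after seeing the data were a block with crossed control numbers and averaging the probe sets of a gene.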

Additional observations from a re-analysis of the deposited data

How the results depend on the processing

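Alternatives gave 1793 values for member probe sets other than JUN 201464_x_at and 201466_s_at, of which limma called 0 at an adjusted p under 0.05. This count leaves out the F-test and the block with crossed control numbers. For rosiglitazone against control the count of 2 called member probe sets became 1 with the deposited scaling, with median scaling and with array brightness as a covariate, 0 with no filter and 0 with no intensity trend, and 0 to 2 when 1 array was left out. The F-test count of 2 became 1 with the deposited scaling, median scaling and brightness, 0 with no filter and with no intensity trend, and 0 to 1 without 1 array. For the combination against control the count of 0 became 1 with the filter at the 60th percentile, with the replicate block and with brightness. The cause of these changes was not tested. The JUN main effect of rosiglitazone was called in all 17 alternatives for both probe sets.

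Some signs turned among values that were not called. With the deposited scaling, which shifted the median of all probe sets by 0.22 for rosiglitazone against control and by 0.17 for its main effect, IER2 was at 0.0203 and 0.0686 in these comparisons, FOSL1 at 0.0155 in the first and JUND 203752_s_at at 0.0106 in the second, and JUND at -0.0162 for the carboplatin main effect. Leaving out 1 array gave JUN 201465_s_at values from -1.4775 to 0.1324 for carboplatin against control and from -0.2315 to 1.3641 for the combination against rosiglitazone, where FOSL2 218881_s_at ran from -0.9279 to 0.1779. Values within 1 SE of 0 were not followed for sign.

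The difference between replicate 1 and replicate 2 was correlated between groups over the probe sets tested. It correlated at 0.08 to 0.25 among the treated groups and at -0.11 to -0.06 between these and control. Whether the numbers mark a shared culture or day cannot be told from these values. With the replicate block the main effects of JUN were 0.8963 and 1.0864 as before (adjusted p = 0.00288 and 0.00534). With the control numbers crossed, a block chosen after seeing the data, 1 member was called for the combination against control and 1 for the combination against carboplatin. Over all probe sets the calls ran from 3 to 80 for rosiglitazone against control (48), 5 to 47 for the combination against control (30), 4 to 27 for the combination against carboplatin (21), 36 to 142 for the rosiglitazone main effect (118) and 8 to 76 for the F-test (68). In the same way they ran from 0 to 2 for carboplatin against control (2), 0 to 3 for the combination against rosiglitazone (3), 1 to 4 for the carboplatin main effect (4) and 0 to 3 for the interaction (0). The highest counts of 80, 47 and 76 came from the block with crossed control numbers, which was chosen after seeing the data. For the rosiglitazone main effect 62 probe sets were higher and 2 lower under the deposited scaling, against 89 and 29 in the main fit.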
